A study of Mus musculus with 14 samples.

Results

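Potassium channel genes were followed in long-term hematopoietic stem cells (LT-HSCs), the rare bone marrow cells that can rebuild the blood of an irradiated host for a lifetime. Members were all protein-coding genes whose symbol starts with Kcn, which gave 94 of the 55450 gene identifiers counted. They fell into 40 voltage-gated pore genes, 8 calcium- or sodium-activated pore genes, 15 inward rectifier genes, 14 two-pore genes and 17 genes for accessory subunits and regulators. All mice were female C57BL/6. The first stage took marrow of donors aged over 24 months, and its replicate numbers were taken as mice, which the labels do not state. Cells without lineage markers or CD48 that carried c-Kit, Sca-1 and CD150 were split by P-selectin (Selp) on their surface, for 4 Selp low and 4 Selp high libraries of 5000 cells each. For the later stage, 1000 old cells of either kind were given to lethally irradiated recipients aged 10 to 16 weeks, and donor LT-HSCs were sorted by the same markers and CD45.2, without a Selp gate, 16 weeks afterwards. That stage had 3 Selp low-derived and 3 Selp high-derived libraries of 5000 cells. Time in a young irradiated host, the gate on CD45.2 and the lack of a Selp gate all came with the second stage and cannot be told apart in a difference between the stages.

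Potassium channels let potassium ions leave or enter the cell along their gradient and so set the membrane potential, which in turn governs calcium entry, cell volume and, in blood cells, activation and proliferation. Voltage-gated channels open on depolarization, calcium-activated channels open when calcium rises, inward rectifiers and two-pore channels carry background currents, and accessory subunits alter the trafficking and gating of the pores. In blood, the voltage-gated channel encoded by Kcna3 and the calcium-activated channel encoded by Kcnn4 are best known from lymphocytes, and the latter also from red cells, where it drives loss of potassium and water.

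Libraries held 22374794 to 38216775 reads assigned to genes. Levels are CPM, reads relative to library size after TMM scaling. LT-HSC markers, all 12 of them detected, summed to 5496 to 6406 CPM before and 3454 to 4859 CPM after transplantation. Of these 12, edgeR called 9 lower after transplantation, Slamf1 among them, and 0 higher, beside 14.6% of all genes called lower. Their median log2 change was -0.59. Neutrophil markers summed to 12270 to 19740 CPM in 3 libraries (Selp low replicate 4, Selp high replicate 4 and Selp low-derived replicate 2) and to 281 to 5889 CPM in the other 11. The same 3 libraries were also highest in erythroid markers (4420 to 5030 CPM, others 2385 to 3493 CPM). Selp low replicate 4 and Selp high replicate 4 were highest in B cell markers (6048 and 2668 CPM, others 93.6 to 1393 CPM). Platelet and megakaryocyte markers summed to 481 to 771 CPM before and 292 to 393 CPM after, with 3 of 8 tested higher (Pf4, Ppbp and Gp1ba) and 3 lower (Itgb3, Gp9 and Clec1b). Itgb3 had 258 to 406 CPM before and 38.6 to 64.4 CPM after. Endothelial and stromal markers summed to 189 to 306 and 125 to 174 CPM. The part of these lists in the differences between the stages was not tested. The labels do not say whether each library after transplantation came from a separate recipient, so p-values measure the spread between these libraries, which may be partly technical. Selp low and Selp high libraries of the same number before transplantation were read as coming from the same mouse. The main fit nevertheless counted them as independent, also in the p-values between the stages. In bulk RNA, fewer cells that express a gene and less RNA of it per cell cannot be told apart.

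Of the 94 genes, 41 had enough reads to be tested (an edgeR filter with a minimum count of 10), namely 16 of 40 voltage-gated, 3 of 8 calcium- or sodium-activated, 6 of 15 inward rectifier, 6 of 14 two-pore and 10 of 17 accessory genes. The other 53 included 14 with 0 reads in all 14 libraries. The highest count of an untested member in any library was 29 reads, for Kcnh8. Mean levels reached 1 CPM in 21 tested members and 10 CPM in 10.

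Most potassium channel RNA came from a pair of genes. Per kb of exon, the mean level over all 14 libraries was 60.8 CPM per kb for Kcnn4 and 54.0 CPM per kb for Kcnk5, a two-pore channel that opens at alkaline pH and takes part in volume regulation. Next came Kcnip3, a calcium sensor that binds voltage-gated channels and also DNA, at 15.8 CPM per kb. Kcnab2, the beta subunit that joins channels of the Kcna family, followed at 10.5 CPM per kb and Kcna3 itself at 10.4 CPM per kb. The modifier subunit Kcns1, which carries no current of its own, stood at 4.28 CPM per kb and the two-pore gene Kcnk12 at 4.11 CPM per kb. Summed over all members, the level per length was 144 to 202 CPM per kb before and 159 to 183 CPM per kb after transplantation, so the ranges overlapped.

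Within that sum the shares moved between subfamilies. Kcnk5 made up 33.0 to 42% of the members' summed level per length in the 8 libraries before transplantation and 20.7 to 25.9% in the 6 after it. Two-pore genes together held 35.4 to 45.1% before and 25.5 to 31.6% after. Voltage-gated genes held 8.94 to 12.2% before and 15.8 to 19.95% after. For both subfamilies the stages did not overlap. Of the 4 voltage-gated genes called between the stages (below), Kcna3 alone rose and 3 fell. The larger voltage-gated share after transplantation thus rested mainly on Kcna3 and was not a rise across the subfamily. Of the 3 two-pore genes called, Kcnk5 and Kcnk6 fell and Kcnk12 rose. Kcnk5 made up most of the two-pore share in both stages. The smaller two-pore share after transplantation thus rested mainly on Kcnk5 and was not a fall across the subfamily. Accessory genes held 14.2 to 19.6% before and 15.1 to 17.8% after, and Kcnn4 held 27.9 to 36.6% before and 35.3 to 39.7% after. These shares are descriptions and carry no test.

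**Figure D1:**
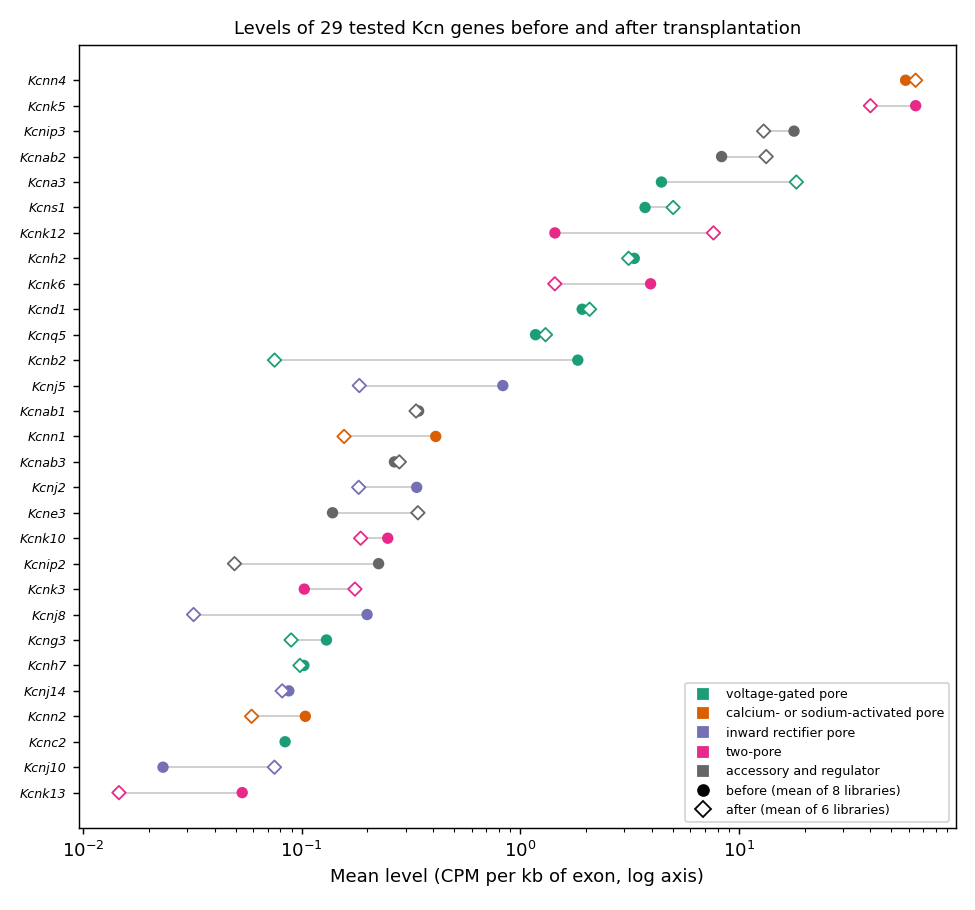
Mean level of 29 of the 41 tested Kcn genes in CPM per kb of exon (log axis), before (filled circles, mean of 8 libraries) and after transplantation (open diamonds, mean of 6 libraries), coloured by subfamily and ordered by the mean over all libraries. Kcnn4 and Kcnk5 lead, Kcna3 and Kcnk12 lie to the right after transplantation, Kcnb2 lies far to the left, and Kcnc2 has no diamond because it had 0 reads after transplantation.

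Between the stages, 9 of the 41 tested members (22%) passed the test (edgeR quasi-likelihood test, Benjamini-Hochberg adjusted p under 0.05 over 16878 genes), beside 27.4% of all genes tested. Kcna3, Kcnk12 and Kcnab2 rose after transplantation. The 6 members that fell included Kcnb2, Kcnc2, Kcnk5, Kcnk6 and Kcnip3. The share of members that rose was 3 of 41 beside 12.9% of all genes, and 6 of 41 fell beside 14.6% of all genes, so the family as a whole was called no more often than the background. The median log2 change of the 41 members was -0.42, with 17 values above and 24 below 0, beside a median of -0.01 over all genes. Low genes can pass the filter through the stage in which they are high, and the median was the same with Kcnc2 set at its bound (below). Stages did not overlap for 6 of the 41 tested members (14.6%: Kcna3, Kcnk12, Kcnb2, Kcnc2, Kcnk5 and Kcnk6), beside 9.75% of all genes tested.

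**Figure D2:**
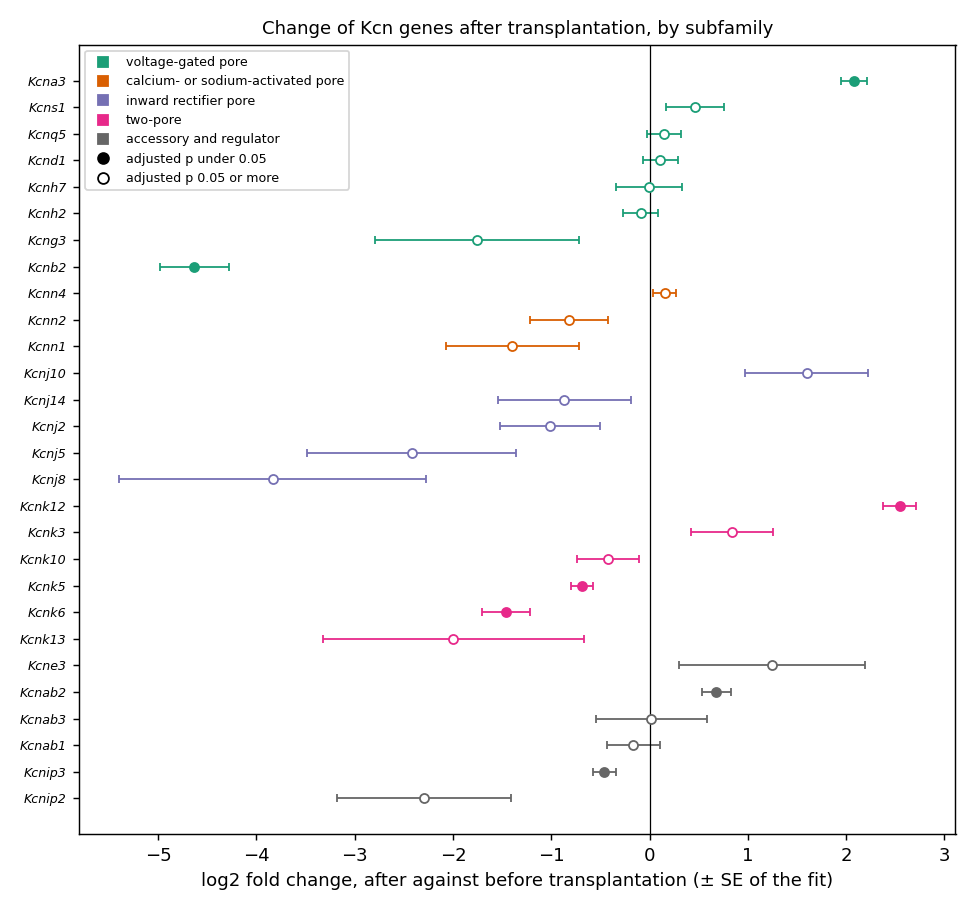
Fitted log2 fold change after against before transplantation for 28 of the 41 tested Kcn genes, ordered within subfamily, with bars of 1 SE of the fit and filled points for an adjusted p under 0.05. Kcnc2 is left out because it had 0 reads after transplantation, and filled points lie on both sides of 0 in the voltage-gated, two-pore and accessory groups.

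Of the members that rose, Kcna3 and Kcnk12 changed most. The stretch of 250 bases before the RefSeq start of each is shown because their levels moved in the same direction (GRCm38.p6, 5′ to 3′ on the gene's strand). Capitals mark GGGCGG, the GC box, or its reverse complement CCGCCC. Kcna3 lies on the plus strand (chr3:107035912-107036161) and Kcnk12 on the minus strand (chr17:87797995-87798244).
Kcna3: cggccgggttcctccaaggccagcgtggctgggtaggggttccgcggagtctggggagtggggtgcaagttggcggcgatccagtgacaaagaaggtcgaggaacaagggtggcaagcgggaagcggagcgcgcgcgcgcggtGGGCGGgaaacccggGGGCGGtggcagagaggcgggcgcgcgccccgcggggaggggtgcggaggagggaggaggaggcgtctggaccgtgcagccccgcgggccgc
Kcnk12: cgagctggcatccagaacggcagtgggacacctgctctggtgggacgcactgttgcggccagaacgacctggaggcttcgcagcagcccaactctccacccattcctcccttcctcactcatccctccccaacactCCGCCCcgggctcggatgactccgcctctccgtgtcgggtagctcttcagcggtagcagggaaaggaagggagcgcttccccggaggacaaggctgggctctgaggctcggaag
The Kcna3 stretch has a GC content of 74.4% and 2 GC boxes, and the Kcnk12 stretch has a GC content of 64.8% and 1. GC boxes stood in 42 of 94 promoters of 69 members (44.7%) and in 32.7% of all 32817 promoters of that length, where the median GC content was 58.6% for members and 52.4% for all. By gene, 41 of 69 members had at least 1 promoter with a GC box, and so had 6 of the 6 called members matched, in 6 of their 13 promoters, some of which overlap. The stretches of Kcna3 and Kcnk12 had no match on either strand to the E-box CACGTG, which is in 6.02% of all promoters, or to the AP-1 motif TGANTCA, in 6.75%. They had none to the RUNX motif TGTGGT, in 14% of all promoters, or the GATA motif AGATAA, in 9.99%. The ETS motif CCGGAA, in 12% of all promoters, was also without a match in them. A match or its absence describes the letters only.

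Kcna3 (GRCm38 chr3:107036169-107038070, plus strand) encodes the shaker-type channel that holds the resting potential of T cells. Its level in the 4 Selp low libraries was 7.69, 10.2, 10.9 and 11.8 CPM, and in the 4 Selp high libraries 7.65, 5.72, 6.54 and 6.89 CPM. After transplantation it was 41.6, 31.5 and 32.6 CPM in Selp low-derived and 39.9, 28.1 and 35.7 CPM in Selp high-derived libraries. Every library after transplantation lay above every library before it. The rise was 4.23-fold (log2 2.08 ± 0.13 SE, edgeR quasi-likelihood adjusted p = 5.26e-07), and its p ranked 6 among the 16878 genes.
Of the T and NK cell markers tested, only Nkg7 rose beside Kcna3. All others tested had a log2 change between the stages below 0, and the median of those tested was -0.94. The 10-gene list summed to 22.9 to 67.5 CPM before and 67.6 to 120 CPM after, and of its 8 tested genes Nkg7 rose (7.57 to 43.6 CPM before and 54.3 to 109 CPM after) and Lck fell (11 to 19.2 CPM before and 9.90 to 10.6 CPM after). The T cell genes Cd3e, Cd3g, Cd3d, Trac, Cd4 and Cd8a were picked from this list, without Nkg7. They together summed to 0.472 to 10.2 CPM before and 0.178 to 3.09 CPM after, and Cd3e was at 0 in at least 1 library of each stage. The sum of the full list was higher in every library after transplantation than in any before it. B cell markers summed to 187 to 6048 CPM before and 93.6 to 1393 CPM after. The part of T, NK, B or other Nkg7-expressing cells in the Kcna3 level was not tested.

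Kcnk12 (chr17:87745801-87797994, minus strand) encodes a two-pore subunit that is largely held inside the cell and gives little current on its own. Selp low libraries had 3.74, 4.33, 4.51 and 3.50 CPM and Selp high libraries 1.61, 1.31, 1.41 and 2.34 CPM. Selp low-derived libraries had 18.3, 13.6 and 14.2 CPM and Selp high-derived libraries 12.3, 15.3 and 17.0 CPM. All 6 libraries after transplantation stood above the 8 before it, 5.83-fold on average (log2 2.54 ± 0.16 SE, edgeR adjusted p = 5.26e-07), and its p ranked 8. Kcnk13, its closest relative, had 0.166 ± 0.213 CPM before (SD, n = 8) and 0.0454 ± 0.0944 CPM after (SD, n = 6) and was not called (log2 -2.0 ± 1.33, edgeR adjusted p = 0.287), and its value was 0.33 without the 3 libraries highest in neutrophil markers.

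Kcnab2 (chr4:152390742-152477871, minus strand) encodes the cytoplasmic beta subunit that docks on channels such as that of Kcna3. Its levels were 44.6, 54.9, 46.5 and 50.9 CPM in Selp low and 30.9, 46.0, 39.1 and 59.7 CPM in Selp high libraries. They were 84.1, 66.4 and 78.0 CPM in Selp low-derived and 51.2, 84.0 and 83.3 CPM in Selp high-derived libraries. Selp high-derived replicate 1 lay among the libraries before transplantation, and the other 5 lay above all of those. The rise was 1.60-fold (log2 0.68 ± 0.15, edgeR adjusted p = 0.00351). Its exons share 125 bases with Gm16334, and reads within these bases cannot be assigned to either gene alone. The related beta subunits Kcnab1 and Kcnab3 were not called between the stages.

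**Figure D3:**
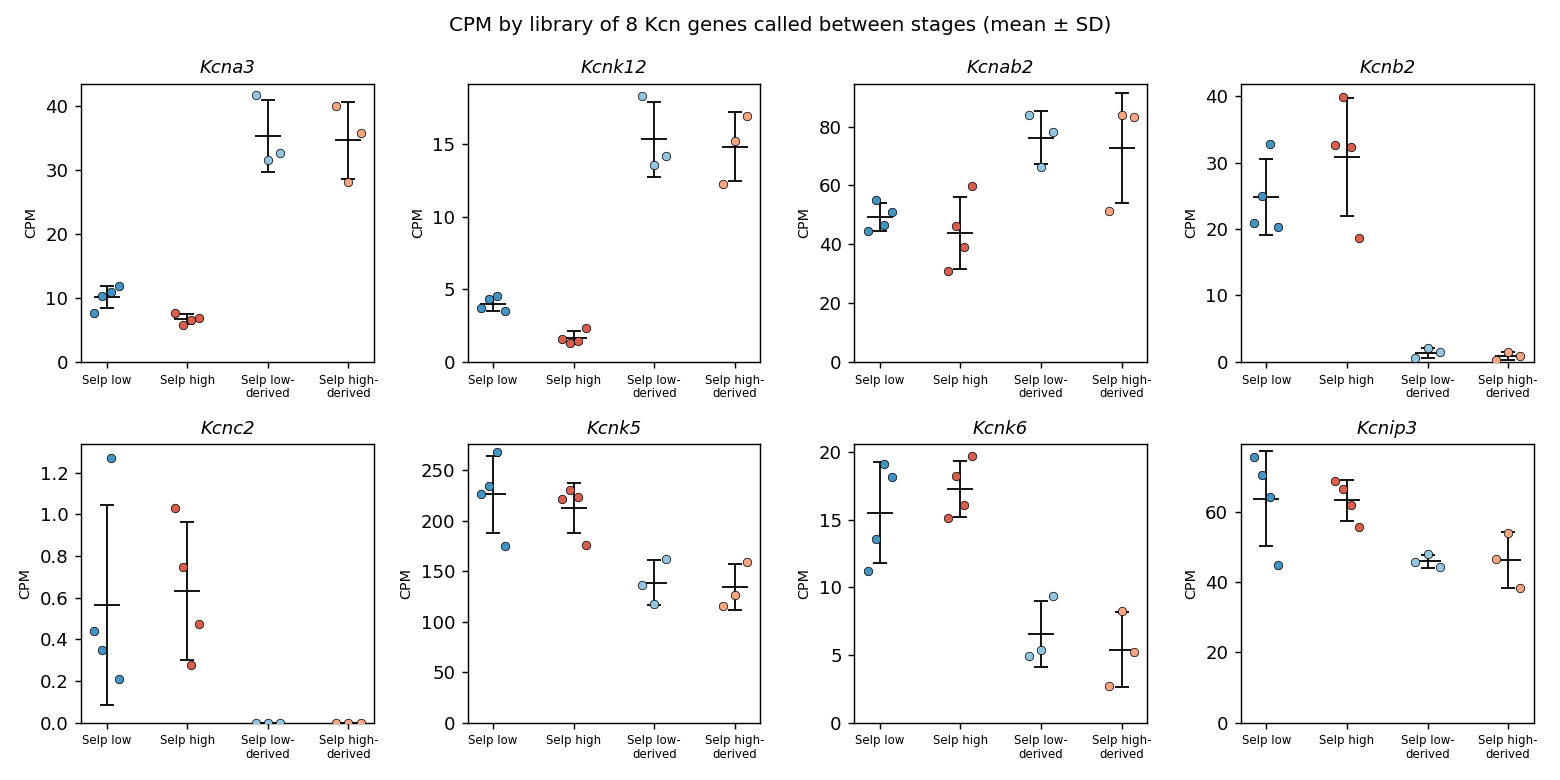
CPM in each of the 14 libraries for 8 of the 9 Kcn genes called between the stages, with points for libraries and bars for the group mean ± SD (n = 4 before, n = 3 after). Kcna3 and Kcnk12 show a gap upward between the stages and Kcnb2 a gap downward, whereas Kcnab2 and Kcnip3 overlap.

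Of the 16 tested voltage-gated genes 1 rose (Kcna3) and 3 fell, with 8 values above and 8 below 0. Kcnb2 (chr1:15287254-15723750, plus strand) encodes a delayed rectifier pore. Its levels were 21, 25.0, 32.8 and 20.4 CPM in Selp low libraries and 32.6, 39.9, 32.3 and 18.7 CPM in Selp high libraries. After transplantation they were 0.549, 2.10 and 1.42 CPM in Selp low-derived and 0.356, 1.51 and 0.910 CPM in Selp high-derived libraries. The lowest library before transplantation (18.7 CPM) thus stood far above the highest after it (2.10 CPM), and the level dropped 24.8-fold (log2 -4.63 ± 0.35, edgeR adjusted p = 1.83e-06).

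Kcnc2 (chr10:112271121-112467024, plus strand), a fast delayed rectifier of firing neurons, was counted in every library before transplantation and in none after it. The Selp low libraries held 13, 13, 33 and 6 reads and the Selp high libraries 27, 20, 8 and 12 reads. That makes 132 reads before and 0 after, so the level was at least 30.7-fold lower after transplantation, against a floor of 3 reads over the 6 libraries (edgeR adjusted p = 0.000412). This bound covers counting error only, and the levels before transplantation were 0.208 to 1.27 CPM. Kcnc2 passed the filter only through the stage in which it was high, so its p and its gap between the stages are not independent of the filter.

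The remaining 12 tested voltage-gated genes were not called. Among the better covered of them, Kcnh2, the delayed rectifier of the heart, had 16.1 ± 3.94 CPM before (SD, n = 8) and 15.2 ± 2.93 CPM after (SD, n = 6). Kcns1 had 4.45 to 20.5 CPM before (median 8.74) and 9.35 to 18.1 CPM after (median 14.2), and the ranges overlapped (log2 0.46 ± 0.29, edgeR adjusted p = 0.263). Kcnd1, an A-type pore, and Kcnq5, an M-type pore, differed by 0.11 ± 0.18 and 0.15 ± 0.18 on the log2 scale. The median change of the 16 voltage-gated genes was 0.00.

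Among two-pore genes, 3 of 6 tested were called, 1 higher (Kcnk12) and 2 lower. Kcnk5 (chr14:20140057-20181809, minus strand) was at 227, 235, 268 and 175 CPM in Selp low and 222, 230, 224 and 176 CPM in Selp high libraries. It was at 136, 117 and 162 CPM in Selp low-derived and 116, 127 and 160 CPM in Selp high-derived libraries. The stages did not overlap, although both replicate 4 libraries before transplantation came close to the highest after it, and the level fell 1.61-fold (log2 -0.69 ± 0.12, edgeR adjusted p = 0.000595). Both replicate 4 libraries are among the 3 that were highest in neutrophil markers, and without those 3 libraries Kcnk5 was still called. The other 11 libraries still had 281 to 5889 CPM of these markers. The part of neutrophils in the Kcnk5 level was not tested. Kcnk6 (chr7:29221926-29232515, minus strand) encodes a channel of the endosomal and lysosomal membrane that also lets potassium out of macrophages. Its levels were 11.2, 13.6, 19.1 and 18.2 CPM in Selp low and 15.1, 18.2, 16.1 and 19.7 CPM in Selp high libraries. They were 4.94, 5.34 and 9.40 CPM in Selp low-derived and 2.74, 8.24 and 5.22 CPM in Selp high-derived libraries. All 6 stood below the 8 before transplantation, and the fall was 2.75-fold (log2 -1.46 ± 0.24, edgeR adjusted p = 0.00051). The acid-sensitive background channel Kcnk3 and the stretch-sensitive Kcnk10 had log2 changes of 0.84 ± 0.42 and -0.42 ± 0.32 and were not called.

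Accessory genes had 2 of 10 tested members called, Kcnab2 upward and Kcnip3 downward. Kcnip3 (chr2:127456498-127522094, minus strand) was at 75.6, 70.5, 64.3 and 44.8 CPM in Selp low and 68.7, 66.6, 61.9 and 55.7 CPM in Selp high libraries. It was at 45.7, 47.9 and 44.2 CPM in Selp low-derived and 46.4, 54.1 and 38.4 CPM in Selp high-derived libraries. The stages overlapped only through Selp low replicate 4, and the fall was 1.38-fold (log2 -0.46 ± 0.12, edgeR adjusted p = 0.00952). The related Kcnip2 had 0.782 ± 0.556 CPM before (SD, n = 8) and 0.171 ± 0.196 CPM after (SD, n = 6), with an adjusted p of 0.0691 in edgeR, the lowest among the 32 members not called.

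Calcium- or sodium-activated genes gave 0 of 3 called by edgeR, with 0 at an unadjusted p under 0.05. Kcnn4 (chr7:24370263-24386690, plus strand), the most abundant member per length, was at 379, 329, 290 and 268 CPM in Selp low and 334, 335, 223 and 217 CPM in Selp high libraries. It was at 342, 291 and 331 CPM in Selp low-derived and 321, 365 and 329 CPM in Selp high-derived libraries. The ranges overlapped, and the log2 change was 0.15 ± 0.12 (edgeR adjusted p = 0.358). Kcnn1, a small-conductance channel, had 0.969 to 3.10 CPM before and 0 to 1.5 CPM after (log2 -1.40 ± 0.68, edgeR adjusted p = 0.143), and limma voom called it lower (adjusted p = 0.034).

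Inward rectifier genes gave 0 of 6 called by edgeR, with 3 at an unadjusted p under 0.05 (Kcnj5, Kcnj8 and Kcnj10). DESeq2 called Kcnj8 lower and limma voom called Kcnj10 higher. There was 1 value above and 5 below 0, with a median of -1.63 at low levels. Kcnj5, a subunit of the G-protein-gated channel, was at 14.4, 0.883, 1.5 and 2.87 CPM in Selp low libraries and 9.98, 0, 0.792 and 0.753 CPM in Selp high libraries. Both libraries of replicate number 1 stood apart, and replicate numbers before transplantation were taken as mice. After transplantation Kcnj5 was at 0 to 2.38 CPM (edgeR adjusted p = 0.107 between the stages). Kcnj2, a strong inward rectifier, had 0.540 to 2.84 CPM before and 0.0361 to 2.03 CPM after (log2 -1.01 ± 0.51, edgeR adjusted p = 0.159). The one gene with a value above 0 was Kcnj10, a glial channel, at 0 to 0.241 CPM before and 0.210 to 0.732 CPM after (log2 1.60 ± 0.63, edgeR adjusted p = 0.0734).

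Selp high and Selp low libraries before transplantation were compared to ask whether old LT-HSCs sorted by P-selectin differ in these genes. None of the 41 tested members was called (edgeR quasi-likelihood, adjusted p), beside 0.0% of all genes, and limma voom called 0 as well. An unadjusted p under 0.05 was found for 2 of 41, beside 5.11% of all genes. The pair was Kcnk12 and Kcna3, which were also the 2 of 41 whose groups did not overlap, beside 3.08% of all genes. Kcnk12 was 2.41-fold lower in Selp high libraries (log2 -1.27 ± 0.22, edgeR adjusted p = 0.33). It was lower in 4 of 4 pairs of the same replicate number, and its p ranked 2 among the 16878 genes. DESeq2 called 11 of the 16878 genes on the same counts, and among them 1 member, Kcnk12 (log2 -1.28, adjusted p = 0.000217), so its call rests on the tool. Over all settings tried, the adjusted p of Kcnk12 ran from 0.000217 to 1 and its log2 difference from -1.54 to -1.17. Kcna3 was 1.51-fold lower in Selp high libraries (log2 -0.60 ± 0.17, edgeR adjusted p = 0.957). It was lower in 4 of 4 such pairs, with replicate number 1 at almost the same level in both libraries (7.69 and 7.65 CPM). Kcnh7, a relative of Kcnh2, was higher in Selp high libraries in 4 of 4 such pairs. Selp low libraries had 1.14 ± 0.593 CPM and Selp high libraries 1.98 ± 0.388 CPM (SD, n = 4 each). Kcnh7 was not called (log2 0.79 ± 0.43, edgeR adjusted p = 0.957). Its exons share 696 bases with Gca on the other strand, and the counts ignore strand.

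**Figure D4:**
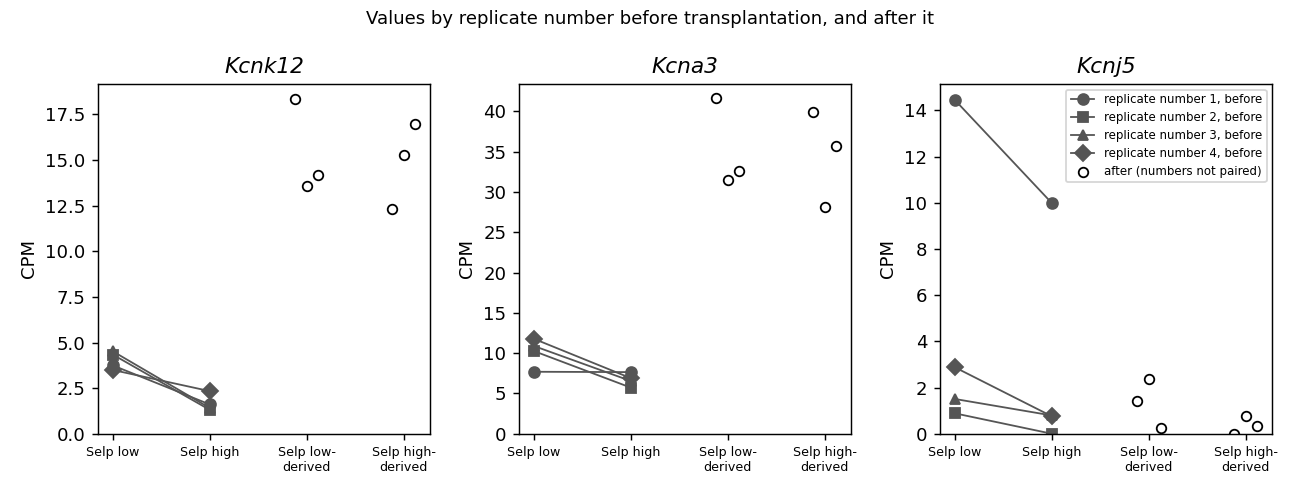
CPM of Kcnk12, Kcna3 and Kcnj5 by library, with lines joining Selp low and Selp high libraries of the same replicate number before transplantation and open circles for libraries after it. The Kcnk12 lines all fall from 3.50 to 4.51 CPM to 1.31 to 2.34 CPM, the Kcna3 lines fall less, and Kcnj5 is high in both libraries of replicate number 1.

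Selp high-derived and Selp low-derived libraries were compared to ask what difference remained after transplantation. None of the 41 members was called by edgeR (adjusted p, 0.0% of all genes), DESeq2 or limma voom. An unadjusted p under 0.05 in edgeR was found for 4 of 41 (Kcnab1, Kcnj14 and Kcng3 among them), beside 4.53% of all genes, and 2 of 41 had groups that did not overlap beside 10.3%. Kcnk12 and Kcna3 differed by -0.05 ± 0.24 and -0.03 ± 0.19 on the log2 scale. Kcnab1, a beta subunit that can inactivate Kcna channels, was at 1.14, 2.06 and 1.80 CPM in Selp low-derived and 5.97, 3.11 and 3.13 CPM in Selp high-derived libraries. The groups did not overlap, and the difference was 2.44-fold (log2 1.29 ± 0.41, edgeR adjusted p = 0.979). Its exons share 201 bases with the antisense gene A330015K06Rik. Kcnj14 rested on 2, 0 and 1 reads in Selp low-derived against 18, 8 and 7 reads in Selp high-derived libraries. Kcng3, a modifier of Kcnb channels, had 45 of its 50 reads after transplantation in Selp low-derived replicate 2, without which its log2 difference went from -4.37 ± 1.72 to -1.12.

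The difference of the Selp difference between the stages was tested by an interaction term, and 0 of 41 members were called by edgeR (adjusted p, 0.0% of all genes), DESeq2 or limma voom. In edgeR, 4 of 41 had an unadjusted p under 0.05, beside 5.18% of all genes. Kcnk12 had the smallest p among members, with a Selp difference 1.22 ± 0.32 higher on the log2 scale after transplantation than before (unadjusted p = 0.00206, edgeR adjusted p = 0.879, quasi-likelihood fit across all genes). The interaction and both Selp comparisons use the same libraries, so the values of Kcnk12 in them are not separate evidence. Kcna3 had an interaction of 0.57 ± 0.26 (edgeR adjusted p = 0.879). Kcnj8, the pore of a nucleotide-sensitive channel, and Kcng3 completed the 4, with 120 and 150 reads in all 14 libraries together.

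Other potassium handling genes were taken as a list of 47, of which 26 were tested. Between the stages 9 of 26 were called (34.6%, beside 27.4% of all genes), 3 higher and 6 lower, and the median log2 change was -0.15. Tmem38b and Tmem38a, cation channels of the endoplasmic reticulum that balance calcium release, both fell, Tmem38b from 29.7 ± 3.41 CPM (SD, n = 8) to 13.8 ± 1.47 CPM (SD, n = 6) and Tmem38a from 26.9 ± 4.63 to 16.2 ± 2.27 CPM. Their log2 changes were -1.11 ± 0.10 (edgeR adjusted p = 7.24e-06) and -0.73 ± 0.13 (edgeR adjusted p = 0.000935). Atp1b3, a beta subunit of the sodium-potassium pump, rose from 167 ± 16.9 to 254 ± 32.5 CPM (log2 0.60 ± 0.09, edgeR adjusted p = 0.000335). Calm3 and Calm2 encode calmodulin, the calcium sensor bound to the channel of Kcnn4. Calm3 rose (log2 0.71 ± 0.11, edgeR adjusted p = 0.00032), although its stages overlapped. It had 101 to 152 CPM before, 193 to 301 CPM in Selp low-derived and 143 to 152 CPM in Selp high-derived libraries. Calm2, the most abundant of the list per length at 498 CPM per kb, was not called (log2 0.03 ± 0.09, edgeR adjusted p = 0.835). Fxyd7 and Fxyd1, small regulators of the pump, fell at low levels, from 1.03 ± 0.495 to 0.143 ± 0.0987 CPM and from 0.893 ± 0.377 to 0.180 ± 0.294 CPM. In the other comparisons edgeR called 0 of the 26, with 0, 3 and 4 at an unadjusted p under 0.05 for Selp before transplantation, Selp after it and the interaction.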

How the data were processed

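RNA-seq counts of 14 mouse LT-HSC libraries were used. The deposited counts are whole reads per gene, made by the authors. The submitters' processing notes list STAR 2.7.0d, Picard 2.23.0, FastQC 0.11.9 and the build GRCm38. For the counting settings and annotation release, the sources used here give nothing. All 55450 identifiers matched the GENCODE M21 annotation of GRCm38, which gave symbols, positions and summed exon length. The unstranded counts were taken. Promoter sequences are from RefSeq.

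Counts were fitted with edgeR 4.0.16 (R 4.3.3): TMM factors (0.963 to 1.042), a filter with a minimum count of 10 (16878 genes kept), 4 group means over all 14 libraries, 10 residual degrees of freedom, the quasi-likelihood test and Benjamini-Hochberg adjustment over all genes, with calls at an adjusted p under 0.05. The biological coefficient of variation was 0.322. Errors of fold changes are the SE of the fit. Depth was 22374794 to 38216775 reads per library. DESeq2 1.42.0, limma 3.58.1 (voom), other filters, other scaling, a replicate block and left-out libraries were tried as alternatives. On simulated data, 58% of genes changed 1.5-fold and 100% of those changed 4-fold between the stages were recovered. Of genes changed 2-fold, 64% were recovered for Selp high against Selp low before transplantation, 52% for Selp after it and 34% for the interaction. At 1.5-fold these shares were 16%, 10% and 0%. Simulated libraries were drawn independently, unlike the same-numbered libraries before transplantation, which deviated together. Only genes with a mean of at least 2 CPM were changed in the simulation. These shares therefore do not apply to the members below that level.

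Same-numbered libraries before transplantation deviated together (r of 0.289 to 0.527 across genes, other pairs -0.401 to 0.049), so each number was read as 1 mouse. The main fit had no term for a shared mouse, so its p-values treat all libraries as independent. The SDs given count libraries, not mice. For the later stage r was -0.051 to 0.025 and libraries were not paired. No libraries were duplicates. Named members were those called in any comparison, the 2 highest per length in each subfamily and the 3 with the smallest p in the other comparisons, and from the list of potassium handling genes up to 6 called ones and the 2 highest per length. Kcnd1, Kcnq5, Kcnh2, Kcnk3, Kcnk10, Kcnk13, Kcnip2, Kcnj10, Kcnh8 and other genes named once were chosen outside this rule after their values were seen. Some genes that the rule takes are not reported here, and figures show members named in the text. The members and lists were chosen with earlier results of these data known.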

Additional observations from a re-analysis of the deposited data

Results flagged for a closer look

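In 5 of the 38 groups of named members with 4 libraries each, 1 library stood apart from the other 3 of its group by Dixon's test of the gap over the range. Chance alone marks about 1 in 20 such groups. Kcnj5 stood at 14.4 CPM in Selp low replicate 1 and at 9.98 CPM in Selp high replicate 1, which carry the same replicate number. The other 6 libraries before transplantation lay between 0 and 2.87 CPM. Kcnj8 stood at 2.79 CPM in Selp high replicate 1, against 0.0688 to 0.411 CPM in the other Selp high libraries. It was at 0 in Selp low replicate 1, of the same replicate number. Kcnab1 stood at 4.79 CPM in Selp high replicate 2, against 2.75 to 3.10 CPM in the others. Kcnk5 was lowest at 176 CPM in Selp high replicate 4, against 222 to 230 CPM in the others, and Selp low replicate 4 was also the lowest of its group at 175 CPM.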

How the results depend on the processing

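Across the alternatives run, the 3 members that rose between the stages were called each time, and so were Kcnb2, Kcnk5, Kcnk6 and Kcnip3 among those that fell, while Kcnc2 was not tested at a minimum count of 50. Members called higher numbered 3 to 4 and lower 5 to 9, the latter highest without a filter on low counts, which added Kcna6, Kcna7 and Kcnk1. Leaving out each library in turn gave 3 higher and 6 to 8 lower, and without the 3 libraries highest in neutrophil markers 4 rose (Kcne3 was added) and 7 fell (Kcnn2 was added). No called value changed sign. Of the values not called that the text prints, some did. Without the 3 libraries the log2 change between the stages was 0.33 for Kcnk13 and -0.088 for Kcnd1. With each library left out in turn it ran from -0.044 (Selp high-derived replicate 1 left out) to 0.20 for Kcnd1 and from -0.026 (Selp low-derived replicate 3 left out) to 0.22 for Kcnq5. The Selp difference after transplantation then ran from -0.18 to 0.098 for Kcnk12, positive when replicate 1 of either derived group was left out. For Kcna3 it ran from -0.16 to 0.11, positive with either replicate 1 of the Selp low-derived or replicate 2 of the Selp high-derived group left out. Before transplantation DESeq2 called 1 member, Kcnk12 (adjusted p = 0.000217), and 11 of 16878 genes, where edgeR called 0 of either. DESeq2 also called Kcnip2 lower between the stages (adjusted p = 0.0312). With limma voom Kcnn1 fell between the stages (log2 -2.51, adjusted p = 0.034). The cause of these differences was not tested. With the replicate number as a block, 3 members rose and 6 fell between the stages. That fit joined equal numbers across the stages, which the labels do not tie to a shared mouse. It therefore cannot show whether the calls hold when libraries of the same mouse are paired. In the Selp comparison before transplantation, numbers were blocked within the stage. Kcnk12 then differed by -1.29 and was not called (edgeR adjusted p = 0.353). Depth limits the 53 untested members and those below 1 CPM, for which a few reads set the fold change.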

Other observations

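Of the 5 Kcn-named genes that do not code for protein, 1 was tested. Kcnq1ot1 (chr7:143203458-143296549, minus strand), a long imprinted antisense RNA within the Kcnq1 locus, was at 7.22, 9.90, 10.4 and 12.8 CPM in Selp low libraries and 14.6, 19.1, 17.5 and 13.4 CPM in Selp high libraries. It was at 15.4, 21.5 and 27.5 CPM in Selp low-derived and 18.1, 18.3 and 11.5 CPM in Selp high-derived libraries. It rose between the stages (log2 0.53 ± 0.17, edgeR adjusted p = 0.0336). In 4 of 4 replicate numbers before transplantation it was higher in the Selp high than in the Selp low library. That difference did not pass the test (log2 0.68 ± 0.23, edgeR adjusted p = 0.957).

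Fxyd5, Fxyd7 and Fxyd1, small regulators of the sodium-potassium pump, lie next to each other on the minus strand of chr7 (31032722 to 31057199 on GRCm38), and all 3 fell between the stages. Fxyd5, the abundant one, went from 575 ± 80.8 CPM (SD, n = 8) to 427 ± 38.9 CPM (SD, n = 6), with a log2 change of -0.43 ± 0.10 (edgeR adjusted p = 0.00612).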
